A study of Mus musculus with 5 samples.

Results

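Fatty acid elongases and desaturases are the enzymes of the endoplasmic reticulum that lengthen acyl chains and place double bonds in them. Here they are 10 mouse genes, Elovl1, Elovl2, Elovl3, Elovl5, Elovl6, Elovl7, Fads1, Fads2, Scd1 and Scd2, read by 11 of the 55681 distinct probes of an Agilent 2-colour array. A probe was taken as a member when its accession, without the version, belonged to one of these genes; Elovl1 had 2 probes and every other gene had 1. All 10 genes passed the filter on dim probes and stood among 21494 features tested. The samples were livers of Fra-1hep mice, in which hepatocytes overexpress Fra-1, one of the FOS proteins that form AP-1 dimers, and of wt mice as controls, both on the C57BL/6J strain. Every animal was 26 to 28 weeks old and, from 4 weeks of age, had been given a high-fat diet (HFD) with 45% of its energy as fat. RNA of each of 4 Fra-1hep mice, in Cy5, shared an array with a Cy3-labelled pool of 5 controls. One further array held the control pool in Cy5 and a Fra-1hep pool in Cy3, and is called the swapped pool below; which mice made up that pool, the sex of the animals and the promoter that drives Fra-1 are not given in the sources used here.

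An elongase of the ELOVL family catalyses the condensation step that starts each round of chain lengthening. A ketoreductase, a dehydratase and an enoyl reductase complete the round. Stearoyl-CoA desaturases (SCD) turn saturated chains into monounsaturated ones, mainly palmitoleate and oleate, whereas the fatty acid desaturases Fads1 and Fads2, with Elovl5 and Elovl2, convert the essential dietary acids into arachidonic acid and docosahexaenoic acid. In liver many of these genes are targets of SREBP-1c, of the liver X receptors and of PPAR alpha.

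Between 47.15% and 54.7% of spots in Cy5 and between 47.7% and 61.54% in Cy3 were well above background, and 0 spots were saturated. The only Fosl1 probe, for the gene that encodes Fra-1, was well above background on 0 arrays for Fra-1hep RNA and on 1 for control RNA. Its log2 ratios lay between -0.37 and 0.12, so it did not check the labels. Of 8 hepatocyte markers, all were detected in Fra-1hep RNA on all 5 arrays, 1 was higher and 1 lower, and their log2 summed level ran from 19.2 to 19.6 against 18.9 to 19.5 in control RNA. Markers of other cell types also moved: 5 of 6 neutrophil markers were higher, 7 of 8 stellate cell and fibroblast markers and 4 of 7 macrophage markers were lower. Beside these counts, 11.2% of all features were higher and 15.4% lower. The log2 of the summed linear level of the neutrophil markers ran from 14.2 to 15.8 in the Fra-1hep channels and from 12.3 to 12.5 in the control channels. For the stellate cell list these ranges were 13.9 to 14.3 and 15.1 to 15.4, and for the macrophage list 14.4 to 15.6 and 15.5 to 15.8. The macrophage ranges thus overlapped, and Csf1r (-0.54), Clec4f (0.07) and Vsig4 (0.05) of that list did not pass. Of 6 adipocyte markers, 5 (Adipoq, Cfd, Lep, Plin1 and Retn) were never detected above background in Fra-1hep RNA and 4 never in control RNA. The 2 that could be tested, Cidec and Cfd, were lower. Cfd was detected in control RNA on all 5 arrays and in Fra-1hep RNA on 0. It passed the filter through the control channel alone, so its call rests on an undetected level. The summed level of the adipocyte markers ran from 11.4 to 11.8 against 12.4 to 12.6. That sum mostly follows Cidec, the only one detected in Fra-1hep RNA (mean level 11.46 against 12.16 in control RNA), so it says little about adipocytes. Endothelial markers (2 of 6 lower, 12.8 to 13.2 against 13.1 to 13.3), lymphocyte markers (2 of 5 lower, 10.9 to 11.3 against 11.1 to 11.4) and cholangiocyte markers (0 of 5 changed, 10.2 to 11.4 against 10.9 to 11.1) had overlapping levels. The part these cells have in the results below was not tested, and in whole liver RNA fewer cells of a type cannot be told apart from less RNA per cell. Mouse 1 was on a slide of its own and the other 4 arrays shared a slide, so for mouse 1 slide and animal cannot be told apart.

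Of the 10 genes, 4 were lower in Fra-1hep livers (Elovl2, Elovl3, Elovl7 and Fads2), 0 were higher and 6 did not pass an adjusted p of 0.05 (limma, Benjamini-Hochberg over all features). Over all features 26.6% were called, 15.4% lower and 11.2% higher, and of 28049 probes fitted singly 25% were called. All 5 arrays had 1 sign for 5 of the 10 genes (the 4 called ones and Elovl5) and for 35.7% of features. The spread among control mice could not be measured, since all control RNA came from 1 pool. For the setting called the control pool's spread, the moderated residual variance of the fit, divided by the 5 control mice, was added to the squared standard error. This assumes that control mice vary as the Fra-1hep mice do. With this spread added, Elovl2, Elovl3 and Elovl7 still passed, and 13.2% of features did. On the slide of 4 arrays, without mouse 1, the 4 called genes passed at -0.48 (Elovl2), -1.62 (Elovl3), -0.71 (Elovl7) and -0.29 (Fads2). The fitted value is log2 of Fra-1hep over control, given ± its moderated standard error; its median was -0.25 over the 10 genes and -0.0034 over all features. The median absolute value was 0.31 for the genes and 0.13 for all features. Log2 ratios below are listed for mice 1 to 4 and then for the swapped pool with the sign turned, so that a negative value always means less signal from Fra-1hep RNA. Levels are log2 normalized intensities of 1 probe and are compared only within that probe.

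**Figure D1:**
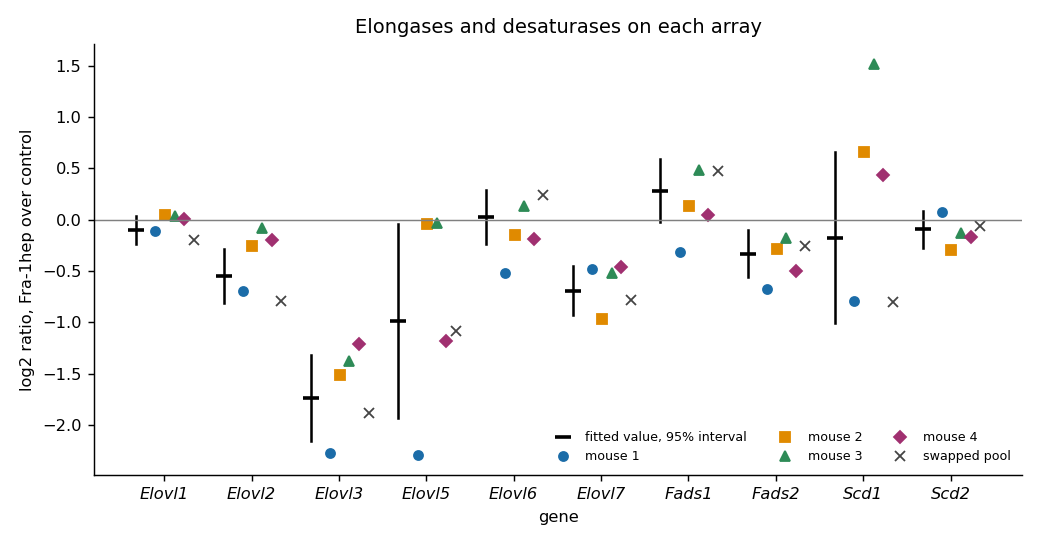
Log2 ratio of Fra-1hep over control (vertical axis) for each gene (horizontal axis) on each of the 5 arrays, with the fitted value and its 95% confidence interval as a black bar to the left. Elovl3 is below 0 on every array, between -2.27 and -1.21, while the 4 mice are most spread for Elovl5 and Scd1.

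Elovl3 elongates saturated and monounsaturated chains to very long ones and is known from brown fat, sebaceous glands and, in mice, from the liver of males. It showed the largest change of the family and was 3.33-fold lower. Its levels in the 4 mice were 7.29, 7.75, 7.91 and 8.20, and 7.47 in the swapped pool, against control levels of 9.55, 9.25, 9.28, 9.42 and 9.35 on the same arrays. The channels did not overlap: the highest Fra-1hep level lay below the lowest control level. The control levels are repeat readings of 1 pool, so this does not compare the mice with single control mice. The share of all features without overlap was not counted. Fads2, close to the threshold, had no overlap either (highest Fra-1hep level 10.26, lowest control level 10.28). The log2 ratios were -2.27, -1.51, -1.37 and -1.21 in the mice, with -1.88 in the swapped pool, a fitted value of -1.74 ± 0.18 (adjusted p = 0.000995). The gene stood at rank 107 of all features by the size of its change, and changes of at least 2-fold that passed made up 1.86% of features. Mouse 1 was the lowest and mouse 4 the highest of the mice.

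Elovl3 transcript is known to follow the clock and sex hormones in mouse liver, so both sets of genes were read beside it. Of 16 clock genes tested, 2 were higher (among them Cry2 at 0.37 ± 0.08), 1 was lower (Clock at -0.25 ± 0.06) and 13 did not pass. For this and each list that follows, the shares to read the counts against are those of all features, 11.2% higher and 15.4% lower, with a median of -0.0034. Without mouse 2 or without the swapped array 3 were higher, and without mouse 1 or mouse 4, 2 were lower; with the control pool's spread added 0 were lower. The output genes Dbp (0.02) and Tef (-0.07) did not pass. Of 15 tested sex-linked and sex-biased genes, 5 were lower and 1 was higher. The Y-linked genes Ddx3y (0.03 ± 0.07) and Eif2s3y (-0.02 ± 0.06) were well above background in both channels of all 5 arrays and did not pass, and Xist was too dim to be tested. Among genes known to be higher in males, Slco1a1, an organic anion carrier, was lower (-1.20 ± 0.22), as was the steroid dehydrogenase gene Hsd3b5 (-1.36 ± 0.31), whereas the cytochrome genes Cyp2d9 (0.32) and Cyp4a12a (-0.07) did not pass. Of genes known to be higher in females, Cyp2b9 was lower (-1.04 ± 0.17) and Cyp2a4 was higher (0.56 ± 0.10). The transcriptional regulator gene Trim24 was lower as well (-0.71 ± 0.16). With the control pool's spread added, 2 of the list were lower and 1 higher, and without mouse 3, 2 were higher. The part of these genes in the Elovl3 value was not tested.

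Elovl7, which lengthens saturated chains, was 1.62-fold lower. Fra-1hep levels were 7.12, 6.71, 7.06 and 7.04 in the mice, with 6.80 in the swapped pool, and control levels were 7.59, 7.67, 7.57, 7.51 and 7.58. Every Fra-1hep level lay below every control level. The log2 ratios were -0.48, -0.96, -0.52 and -0.46 in the mice, with -0.78 in the swapped pool. Mouse 2 lay apart from the other three, and the fitted value was -0.69 ± 0.10 (adjusted p = 0.00394). With an offset of 0 in place of 50 the value was -1.11 (adjusted p = 0.0142). With the scanner software's processed signals, which also differ in background correction and normalization, it was -1.45 (adjusted p = 0.0172).

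Elovl2 carries the last elongations towards docosahexaenoic acid. It was 1.46-fold lower. Its Fra-1hep levels were 13.09, 13.44, 13.55 and 13.45 in the mice, with 12.97 in the swapped pool, and every one lay below the control levels, which ran from 13.63 to 13.78. The log2 ratios were -0.69, -0.25, -0.08 and -0.20 in the mice, with -0.79 in the swapped pool, all below 0. The fitted value of -0.55 ± 0.11 (adjusted p = 0.0125) became -0.31 over the 4 mice alone (adjusted p = 0.0481). Of the 19 other settings, the minimum change of 1.2-fold alone ended the call (adjusted p = 0.22).

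Fads2, the delta-6 desaturase that starts the conversion of linoleic and alpha-linolenic acid, was 1.26-fold lower. Its levels were 9.60, 10.05, 10.26 and 9.93 in the mice, with 10.11 in the swapped pool, and control levels were 10.28, 10.34, 10.44, 10.44 and 10.36. Each array gave a lower Fra-1hep than control level, with log2 ratios of -0.67, -0.29, -0.17 and -0.50 in the mice, with -0.25 in the swapped pool. The fitted value was -0.33 ± 0.10 (adjusted p = 0.0429), close to the threshold. The call ended without mouse 4 (-0.32, adjusted p = 0.0884), with an offset of 0 (adjusted p = 0.076), without background subtraction (0.0533), with processed signals or the deposited values (0.118) and with the control pool's spread added (0.124).

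**Figure D2:**
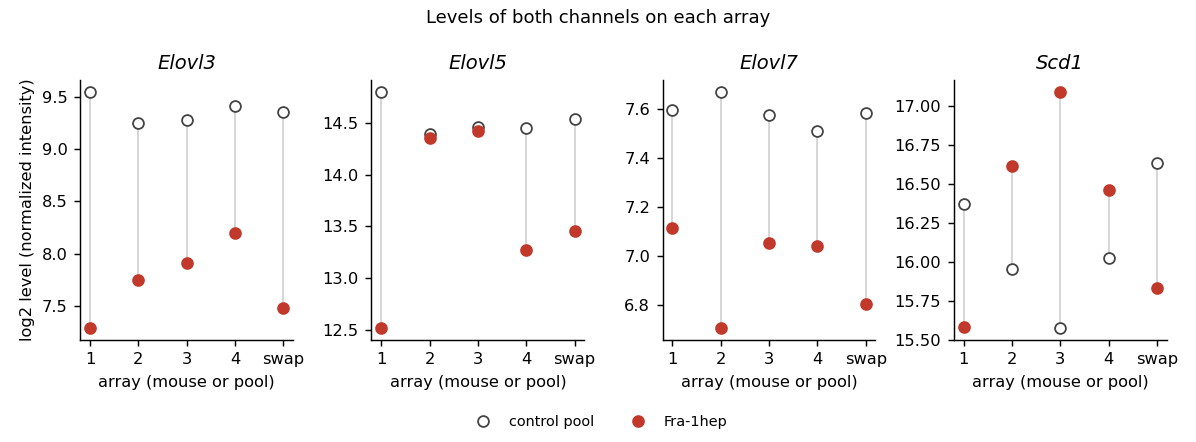
Log2 level of the Fra-1hep channel (filled) and of the control channel (open) for 4 genes on the arrays of mice 1 to 4 and of the swapped pool; a grey line joins the 2 channels of 1 array, and each panel has its own vertical axis. Elovl3 and Elovl7 have Fra-1hep below control on all 5 arrays, Elovl5 has both channels together in mice 2 and 3, and Scd1 has Fra-1hep above control in mice 2, 3 and 4 only.

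Elovl5, the elongase of polyunsaturated chains that acts between the Fads2 and Fads1 steps, did not pass, and its 4 mice were far apart. Fra-1hep levels were 12.52, 14.35, 14.43 and 13.27 in the mice, with 13.46 in the swapped pool, while control levels stayed between 14.40 and 14.81. The log2 ratios were -2.29, -0.04, -0.03 and -1.18 in the mice, with -1.09 in the swapped pool. Mice 2 and 3 thus lay at the level of the control pool, whereas mouse 1 and mouse 4 were well below it, a 4.79-fold range among animals of 1 group. The standard deviation of the 4 ratios was 1.08, against a median of 0.12 over all features, and 7 of the 21494 features had a larger one. The fitted value was -0.99 ± 0.40, with a 95% confidence interval from -1.93 to -0.04 and an adjusted p of 0.111. It passed with the swapped array turned and no dye term (-0.93, adjusted p = 0.0491) and with median centring of the arrays (-0.95, adjusted p = 0.0461).

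Windows around the annotated start, 250 bases before and 50 after, were given by RefSeq (GRCm38.p6) for 6 of the 10 genes and 8 starts. Elovl3, Fads1, Scd1 and Scd2 had none. The AP-1 site TGANTCA was searched on both strands, since Fra-1 is an AP-1 subunit, beside the CRE TGACGTCA, the GC box GGGCGG, the CCAAT box CCAAT and the E-box CACGTG; matches of different motifs were allowed to overlap. TGANTCA occurred in 0 of the 8 windows and in 7.81% of all 32851. GGGCGG occurred 5 times at the Elovl2 start shown and 0 times at its other start, 3 times at Elovl7 and 1 time at Fads2. It also occurred 5 and 2 times in the windows of Elovl1, which was not called, 0 times at Elovl6, and in 35.7% of all windows. The Elovl5 window held 0 of these, but CCAAT 2 times (37.4% of all windows), CACGTG 1 time (7.15%) and TGACGTCA 1 time (1.79%), the last of them 3 bases after the start. A match describes these letters, and no match says only that they are not in this window. The 250 bases upstream are shown for the 3 genes with a lower level and a window, and for Elovl5 with its spread among mice, in capitals where one of the motifs matches; on the strand shown, ATTGG stands for CCAAT and CCGCCC for GGGCGG read from the other strand. They lie at chr13:41220404-41220653 on the minus strand (Elovl2), chr13:108214154-108214403 on the plus strand (Elovl7), chr19:10101504-10101753 on the minus strand (Fads2) and chr9:77917115-77917364 on the plus strand (Elovl5).
Elovl2: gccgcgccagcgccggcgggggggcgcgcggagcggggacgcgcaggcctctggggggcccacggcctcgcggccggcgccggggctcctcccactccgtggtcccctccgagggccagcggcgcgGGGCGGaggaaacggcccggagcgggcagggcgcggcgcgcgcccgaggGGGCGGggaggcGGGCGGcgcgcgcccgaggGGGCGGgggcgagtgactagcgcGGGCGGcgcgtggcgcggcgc
Elovl7: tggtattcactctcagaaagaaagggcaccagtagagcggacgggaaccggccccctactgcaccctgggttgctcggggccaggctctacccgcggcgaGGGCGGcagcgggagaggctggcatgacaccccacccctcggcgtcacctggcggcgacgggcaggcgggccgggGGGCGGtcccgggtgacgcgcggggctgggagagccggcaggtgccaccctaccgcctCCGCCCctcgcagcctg
Fads2: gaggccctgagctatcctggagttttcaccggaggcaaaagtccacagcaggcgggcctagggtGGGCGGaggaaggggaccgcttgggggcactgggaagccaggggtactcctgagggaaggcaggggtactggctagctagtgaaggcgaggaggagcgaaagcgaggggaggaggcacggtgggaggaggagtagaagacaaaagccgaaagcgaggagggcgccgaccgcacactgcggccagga
Elovl5: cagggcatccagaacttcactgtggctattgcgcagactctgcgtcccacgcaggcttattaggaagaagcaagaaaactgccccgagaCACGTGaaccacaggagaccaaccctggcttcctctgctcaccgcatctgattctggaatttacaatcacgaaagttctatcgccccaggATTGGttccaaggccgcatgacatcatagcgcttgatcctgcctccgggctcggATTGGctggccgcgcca

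Scd1, the main stearoyl-CoA desaturase of mouse liver and its chief source of monounsaturated fatty acids, had the second largest standard deviation among mice of the 10 genes (0.95) and did not pass. Fra-1hep levels were 15.58, 16.62, 17.09 and 16.46 in the mice, with 15.83 in the swapped pool. Control levels were 16.37, 15.96, 15.57, 16.03 and 16.63, although the control RNA was the same pool on every array. The log2 ratios were -0.79, 0.66, 1.52 and 0.44 in the mice, with -0.81 in the swapped pool. Mouse 1 and the swapped pool were below control and the other mice above it, so the channels overlapped. The fitted value was -0.17 ± 0.35 (95% confidence interval -1.01 to 0.66, adjusted p = 0.752). Its sign depended on the swapped array, since the 4 mice alone gave 0.46 (adjusted p = 0.3). The fitted dye term was 0.63, the largest of the 10 genes, and Cy5 exceeded Cy3 on 4 of the 5 arrays. With 1 swapped array, a dye effect cannot be told apart from a difference of the swapped pool or its array. The mean of the linear ratios of the 4 mice was 0.67 on the log2 scale, and the swapped pool differed from it by -1.48; whether that pool held these mice is not known.

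Scd2, a desaturase better known from brain and from the liver of the young mouse, had log2 ratios of 0.08, -0.30, -0.13 and -0.17 in the mice, with -0.06 in the swapped pool. Its fitted value was -0.09 ± 0.08, with a 95% confidence interval from -0.27 to 0.08 (adjusted p = 0.395). The 4 Scd genes lie beside each other on 1 chromosome with 0 protein-coding genes between neighbours, and Scd3 (-0.07 ± 0.25) and Scd4 (0.00 ± 0.06) did not pass either. Scd3 ratios of -0.93, 0.20, 0.69 and -0.17 in the mice ran in the same order as those of Scd1. The Scd genes resemble each other, so a probe may read more than 1 of these genes, and which Scd gene a value stands for is uncertain.

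Fads1, the delta-5 desaturase that makes arachidonic acid, lies next to Fads2, and Fads3 lies on the other side of Fads2, again with 0 protein-coding genes between neighbours. Its Fra-1hep levels were 12.60, 13.30, 13.54 and 13.12 in the mice, with 13.53 in the swapped pool, and control levels lay between 12.91 and 13.17. The log2 ratios were -0.31, 0.13, 0.48 and 0.04 in the mice, with 0.48 in the swapped pool, so mouse 1 alone was below control. The fitted value of 0.28 ± 0.13 did not pass (95% confidence interval -0.02 to 0.59, adjusted p = 0.151). Without mouse 1, which is also the only array of its slide, it was 0.35 (adjusted p = 0.0409) and was the only gene of the family called higher under any setting. Fads3, for which no desaturation of the classic substrates is established, did not pass (0.27 ± 0.11).

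Elovl6, which lengthens palmitate to stearate and so feeds Scd1, had log2 ratios of -0.52, -0.15, 0.13 and -0.19 in the mice, with 0.24 in the swapped pool. Its fitted value was 0.03 ± 0.11 (95% confidence interval -0.23 to 0.29, adjusted p = 0.879). The sign turned without the swapped array (-0.18). Elovl1, an elongase of saturated very long chains used in sphingolipids, had the smallest standard deviation among mice (0.073). At its brighter probe the log2 ratios were -0.11, 0.04, 0.04 and 0.01 in the mice, with -0.20 in the swapped pool, and the fitted value was -0.10 ± 0.06 (95% confidence interval -0.24 to 0.03, adjusted p = 0.227). The second Elovl1 probe, carrying the same accession, gave -0.13, 0.20, 0.12, -0.05 and 0.05 on the same arrays and a fitted value of 0.04 ± 0.07. The probes thus differed in sign, and neither passed.

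The order of the mice recurred across the family, a pattern seen after the values were known and given here without a test. Mouse 1 had the lowest ratio of the 4 mice for 8 of the 10 genes, and mouse 3 the highest for 6. Over all features mouse 1 was the lowest for 29.5% and mouse 3 the highest for 20.9%. Among other lists, mouse 1 was lowest for 5 of 6 elongation partners, 7 of 11 other desaturases and electron donors and 5 of 8 acyl-CoA synthetases. It was lowest for 7 of 12 peroxisomal, 9 of 18 regulator, 4 of 9 phospholipid and 7 of 16 clock genes. The counts were 1 of 8 ceramide, 0 of 9 oxygenation and 1 of 15 sex-linked and sex-biased genes. Mouse 1 was alone on its slide, so slide and animal cannot be told apart. The mean ratio of the 10 genes was -0.81 in mouse 1, -0.27 in mouse 2, -0.01 in mouse 3 and -0.34 in mouse 4, and -0.51 in the swapped pool. The 10 genes share a library and a control pool on each array, so they are not independent readings of a mouse.

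**Figure D3:**
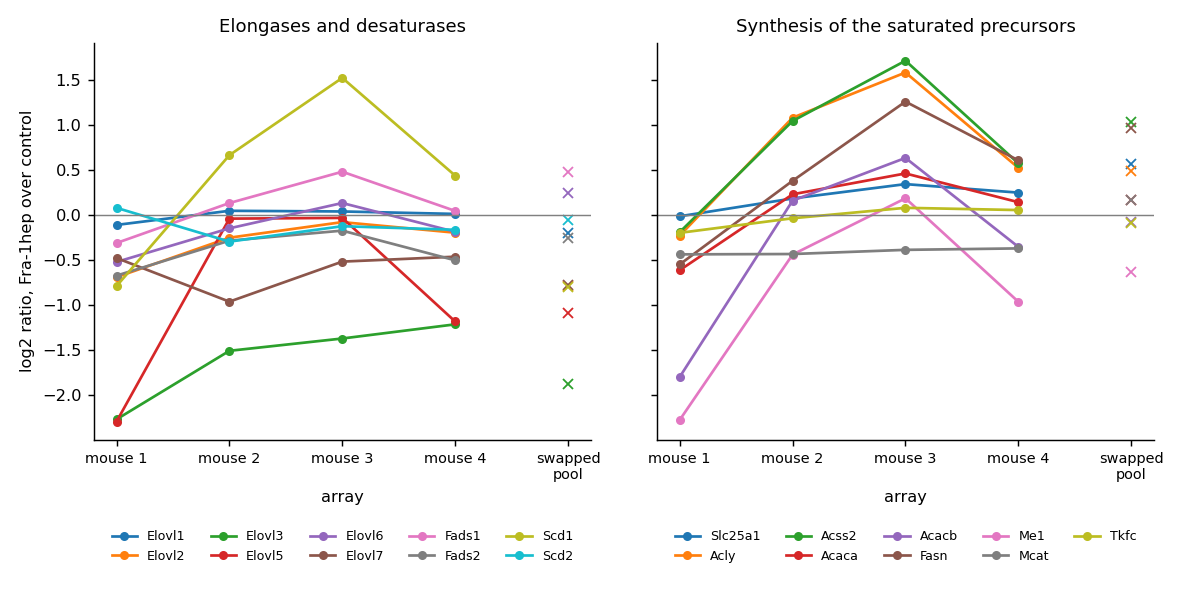
Log2 ratio of Fra-1hep over control (vertical axis) on each array (horizontal axis) for the 10 elongase and desaturase genes (left) and 9 genes that make the saturated precursors (right); lines only join the 4 mice of 1 gene, and crosses are the swapped pool. Mouse 1 is the lowest mouse for 8 of 10 genes on the left and for all 9 on the right.

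The genes that make the saturated substrates of these enzymes also had mouse 1 lowest. Of 9 tested, 1 was higher, 0 lower and 8 did not pass, with a median of 0.11; mouse 1 was the lowest mouse for 9 and mouse 3 the highest for 8. Over all features 26.6% were called. The call here was that of Slc25a1, the mitochondrial citrate carrier (0.37 ± 0.07). Fatty acid synthase, Fasn, had ratios of -0.55, 0.38, 1.26 and 0.60 in the mice, with 0.96 in the swapped pool and did not pass (0.69 ± 0.28, adjusted p = 0.11). Acly, ATP citrate lyase, gave -0.23, 1.08, 1.58 and 0.52 in the mice, with 0.49 in the swapped pool (0.61 ± 0.29), and Acacb, the mitochondrial acetyl-CoA carboxylase, gave -1.80, 0.16, 0.63 and -0.35 with -0.08 (-0.21 ± 0.39). Malic enzyme, Me1, a source of NADPH, gave -2.27, -0.44, 0.18 and -0.96 with -0.63 (-0.75 ± 0.39). Without mouse 1, 4 of these genes were higher; without the swapped array 0 were higher and 1 was lower.

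Among 18 transcriptional regulators of elongase and desaturase genes, 6 were higher, 2 lower and 10 did not pass, with a median of -0.0001. Srebf1, which encodes SREBP-1c, was higher and had ratios of 0.58, 0.36, 0.95 and 0.81 in the mice, with 0.12 in the swapped pool (0.40 ± 0.11). Mlxipl, which encodes the glucose-sensing factor ChREBP, was higher (0.56 ± 0.06), as were Thrsp, a lipogenic target gene (0.89 ± 0.17), Srebf2, the regulator of sterol synthesis (0.37 ± 0.05), and Ppard (0.26 ± 0.06). Insig2, whose product retains SREBP in the endoplasmic reticulum, was lower at -1.56 ± 0.10, a 2.95-fold difference, and Pparg, the receptor of fat storage, at -1.82 ± 0.05. Insig1, the homologue of Insig2, with ratios of -0.86, 0.13, 0.73 and 0.32 in the mice, did not pass (0.05 ± 0.25). Neither did Nr1h3, the liver X receptor alpha gene (-0.11 ± 0.06), or Ppara (-0.27 ± 0.08). The rises numbered 4 without mouse 3, mouse 4 or the swapped array and 3 once the spread of the control pool was added. The falls numbered 5 without the swapped array and 3 without mouse 1.

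The partners of the elongases in the endoplasmic reticulum were measured as well. Of 6 tested, Hsd17b12, the ketoreductase of the cycle, was lower (-0.47 ± 0.08), with ratios of -0.69, -0.24, -0.47 and -0.45 in the mice, with -0.47 in the swapped pool. The dehydratase gene Hacd1 was lower (-0.30 ± 0.07) and Tecr, the enoyl reductase, was higher (0.36 ± 0.09); 3 did not pass, and the median was -0.18. For Tecr the mice gave -0.22, 0.13, 0.26 and 0.01 and the swapped pool 0.67. The fitted dye term was -0.31, which with 1 swapped array cannot be told apart from a difference of that pool or array. Without mouse 2, 3 were lower and without mouse 4, 1; without mouse 4 or the swapped array 0 were higher, and the swapped array's removal left 3 lower. With the control pool's spread added 1 was lower and 0 higher. Elovl4 was too dim to be tested. Of 11 other desaturases and electron donors, Cyb5r3, the reductase that feeds cytochrome b5, was higher (0.37 ± 0.08) and Cyb5a, cytochrome b5 itself, lower (-0.33 ± 0.09), and 9 did not pass, with a median of -0.03. For Cyb5a mice 1 to 4 gave 0.39, 0.19, -0.06 and 0.22 and the swapped pool -0.85. The fitted dye term was 0.52, with the same limit as for Tecr. Without mouse 4, 0 of these genes were lower, 2 were higher without mouse 2, without the swapped array 2 were higher and 2 lower, and with the control pool's spread added 0 changed.

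Of 8 acyl-CoA synthetases, which activate fatty acids before they can be elongated or desaturated, 4 were higher, 1 was lower and 3 did not pass, with a median of 0.24. Acsl4, which prefers arachidonic acid, rose by 0.77 ± 0.10, with ratios of 1.05, 0.54, 0.67 and 0.99 in the mice, with 0.73 in the swapped pool, and Acsl3 by 0.54 ± 0.11. The transport proteins with synthetase activity Slc27a1 (0.32 ± 0.06) and Slc27a2 (0.36 ± 0.07) rose, while Acsl1, the main synthetase of liver, was lower (-0.49 ± 0.09). Without the swapped array 6 were higher.

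Of 12 genes of the peroxisomal pathway that shortens very long chains and completes docosahexaenoic acid, 5 passed as lower, 1 as higher and 6 did not pass, with a median of -0.18. Among the 5 was Abcd2, an importer of very long acyl-CoAs, detected in control RNA on all 5 arrays and in Fra-1hep RNA on 0. It passed the filter through the control channel alone, so its call rests on an undetected level and gives no size of change. An estimate took the Fra-1hep level as the probe's own or that of the array's dimmest detected probe, whichever was higher. It came to 2.32-fold lower. That floor is not the detection limit of the Abcd2 probe, so 2.32 is not a sure minimum. The thiolase genes Acaa1b (-0.92 ± 0.12) and Acaa1a (-0.41 ± 0.08), the multifunctional enzyme gene Hsd17b4 (-0.31 ± 0.05) and Acbd5 (-0.25 ± 0.07) were also lower, and Acox3 was higher (0.49 ± 0.13). With the control pool's spread added 3 were lower and 0 higher; 0 were higher without mouse 4, and 4 without the swapped array. A further 9 genes encode acyltransferases that place polyunsaturated acids in phospholipids, a phospholipase and a carrier. Of these 9, 2 (the phospholipase and the carrier) were lower, 0 higher, and 7 (the acyltransferases) did not pass. The median was -0.15, and 15.4% of all features were lower. Mfsd2a, a carrier of lysophospholipids with docosahexaenoic acid, was 2.15-fold lower (-1.10 ± 0.24), with ratios of -1.85, -2.03, -0.77 and -0.91 in the mice, with -0.82 in the swapped pool, and the phospholipase gene Pla2g6 was at -0.30 ± 0.07. With the control pool's spread added 0 were lower, and without the swapped array 5 were. Lpcat3, which esterifies arachidonic acid, did not pass (-0.23 ± 0.08).

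**Figure D4:**
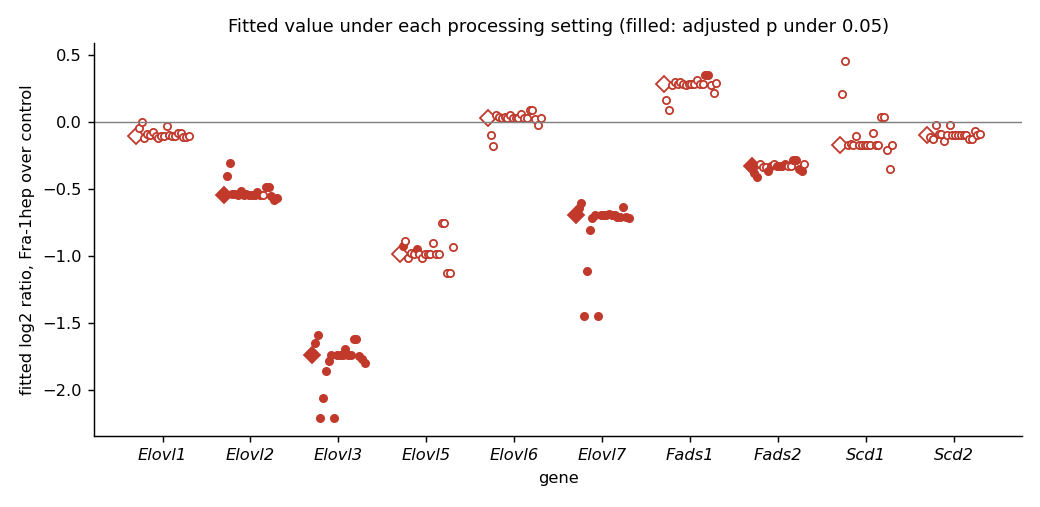
Fitted log2 ratio of Fra-1hep over control (vertical axis) for each gene (horizontal axis) under the reported setting (diamond) and 19 other settings (circles, in 1 fixed order from left to right); filled symbols passed an adjusted p of 0.05. Elovl3 and Elovl7 are filled throughout, from -2.21 to -1.59 and from -1.45 to -0.61, and Scd1 lies on both sides of 0.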

How the data were processed

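Liver RNA of 4 Fra-1hep mice, of a pool of 5 control mice and of a Fra-1hep pool was measured on 5 arrays of 62976 spots; 100 ng of RNA with an integrity score above 7.8 was labelled, per the labels' protocols. The authors read spot intensities with Agilent Feature Extraction. Its version is 10.7 in the submitters' processing notes, while 10.7.3.1 stands in the file headers. The deposited files give raw median signals, processed signals, flags and the log10 of Cy5 over Cy3, per the file headers. Values of the authors' series table are log2 ratios: slopes of 1.00 against the scanner ratios of the mice and -1.00 for the swapped array show that they run Fra-1hep over control, while the centring of its columns, with medians from -0.04 to 0.13, stays unknown. The sources used here give no genome build.

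Median signals were corrected with normexp (offset 50), normalized by loess within arrays, and averaged over the spots of a probe; 189 non-uniform spots and control spots were left out. Names came through accessions from RefSeq (GRCm38.p6), for 26056 of 55681 probes. A probe was kept if 3 arrays or more had it well above background in one of their channels (28115), 66 of them then being left out for a missing spot, and the brightest stood for its gene. Levels are per channel after loess and Aquantile, with dye bias possible because the swap is not balanced. Ratios were fitted with limma (3.58.1, R 4.3.3; lmFit, eBayes) with a genotype coefficient and a dye intercept, and adjusted by Benjamini-Hochberg over 21494 features at 0.05; the code was tested on simulated data. In the genotype coefficient the mean of the mice and the swapped array have equal weight, only the mice give the spread (3 residual and 4.02 prior degrees of freedom), and the control pool counts as 1 sample, so p-values leave out the spread among control mice. Precision is limited by how many arrays there are.

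The 10 genes, the lists and the tests were chosen with earlier results of these data known. The text names all 10 genes, up to 6 called genes of each list by smallest p with Srebf1, Mlxipl, Nr1h3, Ppara and Pparg, and for the 3 called genes with the largest change the 3 named genes nearest in their ratios; other genes were chosen after their values were seen. Settings tried beside this one numbered 19. Some genes that this rule names are not reported here.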

Additional observations from a re-analysis of the deposited data

Results flagged for a closer look

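Among the 4 mice, the Elovl7 ratio of mouse 2 (-0.96) lay far from the other three, which ran from -0.52 to -0.46; without mouse 2 the fitted value was -0.63 (adjusted p = 0.000867). The same comparison was made for 11 probes, and chance alone sets apart about 1 group in 20.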

How the results depend on the processing

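Elovl3 and Elovl7 passed under all 19 other settings, Elovl2 under 18 and Fads2 under 12. Elovl5 and Fads1, which did not pass, did so under 2 each, and Elovl1, Elovl6, Scd1 and Scd2 under 0. These settings overlap, so the counts are not independent checks. The slide of 4 arrays and leaving out mouse 1 use the same arrays, so both passes of Fads1 are the same fit. Processed signals and deposited values gave nearly the same values (Elovl7 -1.45 in both). Aquantile between arrays left the fitted ratios unchanged. The minimum change of 1.2-fold ended the calls of Elovl2 (-0.55) and Fads2 (-0.33), left 2 lower genes of the family and 1051 features of 5717, and 2 higher and 6 lower genes of the lists against 19 and 24. With the control pool's spread added Fads2 (-0.33) did not pass, and 2846 features (13.2%) and 11 higher and 10 lower list genes did. Processed signals and deposited values gave 13 lower list genes and ended the call of Fads2 (-0.32 in both), as did an offset of 0 (-0.33) and no background subtraction (-0.33). Elovl5 passed at -0.93 with no dye term and at -0.95 with median centring. On the slide of 4 arrays Fads1 passed at 0.35, so that 1 gene was higher, and Scd1 turned to 0.034. Without a dye term Scd1 was 0.20 and Elovl6 -0.10, and without the swapped array they were 0.46 and -0.18. When 1 mouse was left out, higher genes of the family numbered 0 to 1 and lower ones 3 to 4, and values ran from -0.37 to -0.29 for Fads2, from 0.22 to 0.35 for Fads1, from -0.024 to 0.085 for Elovl6 and from -0.35 to 0.034 for Scd1. The cause of these changes was not tested. Fra-1hep and control RNA shared each array, so every ratio compares them within an array. No pairing of single mice was possible, because the only control RNA was a pool. With an offset of 0, Elovl3 was at -2.06 and Elovl7 at -1.11.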

Other observations

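Genes that use these fatty acids were counted in the same way, beside 11.2% of all features higher, 15.4% lower and 26.6% called in all. Of 8 genes of ceramide synthesis, which takes up very long chains, 4 were lower, 0 higher and 4 did not pass, with a median of -0.24: the ceramide synthase gene Cers5 (-0.38 ± 0.06), Ugcg, which makes glucosylceramide (-0.33 ± 0.09), the regulator gene Ormdl3 (-0.30 ± 0.09) and Sptlc1 of the first step (-0.19 ± 0.06). Without mouse 1, 2 of them were lower, and 1 without mouse 4 or once the spread of the control pool was added; without the swapped array 1 was higher. Of 9 genes that oxygenate polyunsaturated acids, 2 were higher, 1 was lower and 6 did not pass, with a median of -0.09, a share called near that of all features. The lipoxygenase genes Alox5 (0.43 ± 0.07) and Alox12 (0.39 ± 0.10) were higher, but were detected in control RNA on only 2 and 4 arrays. Alox5 thus passed the filter only through the Fra-1hep channel, and its call gives no sure size of change. With both channels required above background on all arrays, 0 genes of this list were higher and 1 was lower. Ephx1, an epoxide hydrolase, was lower (-0.20 ± 0.06), with ratios of 0.04, 0.09, -0.05 and 0.14 in the mice against -0.45 in the swapped pool. Ephx1 was not called without mouse 1, mouse 3 or mouse 4, and without the swapped array 3 genes were higher; with the pool's spread 1 was higher and 0 lower. Alox5, detected in control RNA on 2 arrays, is known from leukocytes, and 5 of 6 neutrophil markers were higher in the same livers; their part in the Alox5 value was not tested.

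The genes whose ratios over the 5 arrays lay nearest to those of Elovl3, by Euclidean distance on the log2 scale, were Adrb3 (distance 0.56, fitted value -1.63), Etnppl (0.61, -1.78) and Pax2 (0.63, -1.77). Nearest to Elovl7 were Gadd45b (0.24, -0.69), Slc6a8 (0.27, -0.63) and Ppp1r9a (0.31, -0.61), and nearest to Elovl2 were Samd4 (0.26, -0.58; detected in Fra-1hep RNA on 1 array), Mtdh (0.27, -0.60) and Fignl1 (0.30, -0.50). The arrays share 1 control pool, and these distances are a description.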
